A study of Homo sapiens with 8 samples.

Results

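The 10 genes described here encode the cyclins and cyclin-dependent kinases that act in G1, together with the inhibitors that bind them. They are the D cyclins CCND1, CCND2 and CCND3, their kinases CDK4 and CDK6, the E cyclins CCNE1 and CCNE2, their kinase CDK2, and the inhibitors CDKN1A (p21) and CDKN1B (p27). They were selected on their role and on the log2 signals compared here, OVCAR-8R against OVCAR-8, whose differences were already known, so their values are given as a description, without p-values. All 10 were measured, each by 1 probeset annotated to that gene alone, out of 15931 genes in all. RNA came from spheroids, compact cell aggregates about 300 μm across that were grown without attachment in agarose molds. OVCAR-8 is an ovarian adenocarcinoma cell line, and here it was the parental, cisplatin-sensitive line, never taken through stepwise exposure to the drug. OVCAR-8R, which the labels call OVCAR-8C, was derived from it by continuous stepwise exposure to cisplatin, a drug that crosslinks DNA, up to 5 μM, and it stayed resistant once the drug was withdrawn. Both lines were kept in the same medium with serum. The sources used here do not say whether OVCAR-8R is 1 clone or a mixed population. Each line was profiled on 4 Affymetrix Human Gene ST arrays, which the labels number as biological replicates. Nothing says whether the replicates were separate cultures.

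In G1, D cyclins made in response to growth signals bind CDK4 or CDK6, and these complexes begin to phosphorylate the retinoblastoma protein RB. E cyclins then bind CDK2 and complete the phosphorylation, which releases E2F transcription factors and lets cells enter S phase. p21 and p27 block CDK2 complexes, while they also bind D cyclin complexes and help them assemble. The 3 D cyclins are closely related proteins, and their genes are used to different degrees in different tissues. In the normal ovary, CCND2 is known as the D cyclin of granulosa cells, where follicle-stimulating hormone induces it. CCNE1 is known for its amplification in high-grade serous ovarian carcinoma.

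All values are log2 RMA signals, and a difference is the mean of the 4 OVCAR-8R arrays minus the mean of the 4 OVCAR-8 arrays, with its standard error from limma. A gene was called where the adjusted p of Benjamini and Hochberg was under 0.05 and the difference at least 2-fold. By that rule 16.7% of all genes were called, 8.37% higher and 8.37% lower. Among the 10 G1 genes CCND1 was called higher, CCND2 was called lower and 8 were not called. Because probesets bind with different strength, the level of one gene is not compared with that of another. Of 11 marker genes of ovarian carcinoma, 8 lay above the median signal in OVCAR-8R and 4 in OVCAR-8. PAX8, a defining marker of Müllerian epithelium, had a mean signal of 10.28 in the OVCAR-8R arrays and 6.51 in the OVCAR-8 arrays, the latter below the median. MSLN, FOLR1, KRT7, KRT8, KRT18 and EPCAM were also higher in OVCAR-8R, by 1.68 (FOLR1) to 4.45 (KRT7). WT1 and EMX2 went the other way, with differences of -0.86 and -0.69, and MUC16 and SOX17 differed by 0.07 each. In both lines the defining leukocyte markers PTPRC and CD3E and the fibroblast marker DCN lay among the dimmest 25% of probesets. Of 4 leukocyte markers measured, 1 lay above the median in each line, CD68, at 11.20 in OVCAR-8R against 8.68 in OVCAR-8. Of 5 fibroblast markers, 2 lay above it in OVCAR-8R and 1 in OVCAR-8, with COL1A1 at 9.50 against 7.46. The part that the differences in these markers have in the results below was not tested.

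The D cyclins differed in opposite directions. CCND2 signals were 9.97, 10.16, 10.36 and 9.99 on OVCAR-8 arrays 1 to 4, and 5.70, 5.58, 5.38 and 5.38 on OVCAR-8R arrays 1 to 4. The lines were far apart, with a gap of 4.27 between the dimmest OVCAR-8 array and the brightest OVCAR-8R array, and arrays within a line differed far less. The CCND2 difference was -4.61 (standard error 0.11), a 24.4-fold lower signal in OVCAR-8R, and 13 of the 15931 genes had a more negative difference. In OVCAR-8R the mean CCND2 signal, 5.51 ± 0.16 (SD, n = 4), lay 0.40 above the bound of the lowest quartile of signal, which was 5.11. Signals this dim are near background, and the size of the difference is uncertain there.

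CCND1, the D cyclin most often overexpressed in carcinomas, went the other way. Its signals were 10.31, 10.40, 10.25 and 10.32 on the OVCAR-8R arrays against 8.37, 8.40, 8.71 and 8.55 on the OVCAR-8 arrays. Every OVCAR-8R array was brighter than every OVCAR-8 array, by at least 1.54. The CCND1 difference was 1.81 (standard error 0.09), a 3.51-fold higher signal, and 503 genes had a larger positive difference. CCND3 had signals of 9.45, 9.25, 9.30 and 9.22 in OVCAR-8R and 8.73, 8.79, 8.94 and 8.83 in OVCAR-8. These also did not overlap, but the CCND3 difference of 0.48 (standard error 0.08) was small, a 1.40-fold higher signal, and was not called.

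Set against each other, the difference of CCND2 lay 6.42 below that of CCND1 on the log2 scale (difference of differences -6.42, standard error 0.10), an 85.9-fold divergence. It lay 5.09 below that of CCND3 (-5.09, standard error 0.08). The difference of CCND1 exceeded that of CCND3 by 1.33 (standard error 0.08). The comparisons with CCND2 were named when the genes were chosen, that of CCND1 with CCND3 was not, and all are descriptions.

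**Figure D1:**
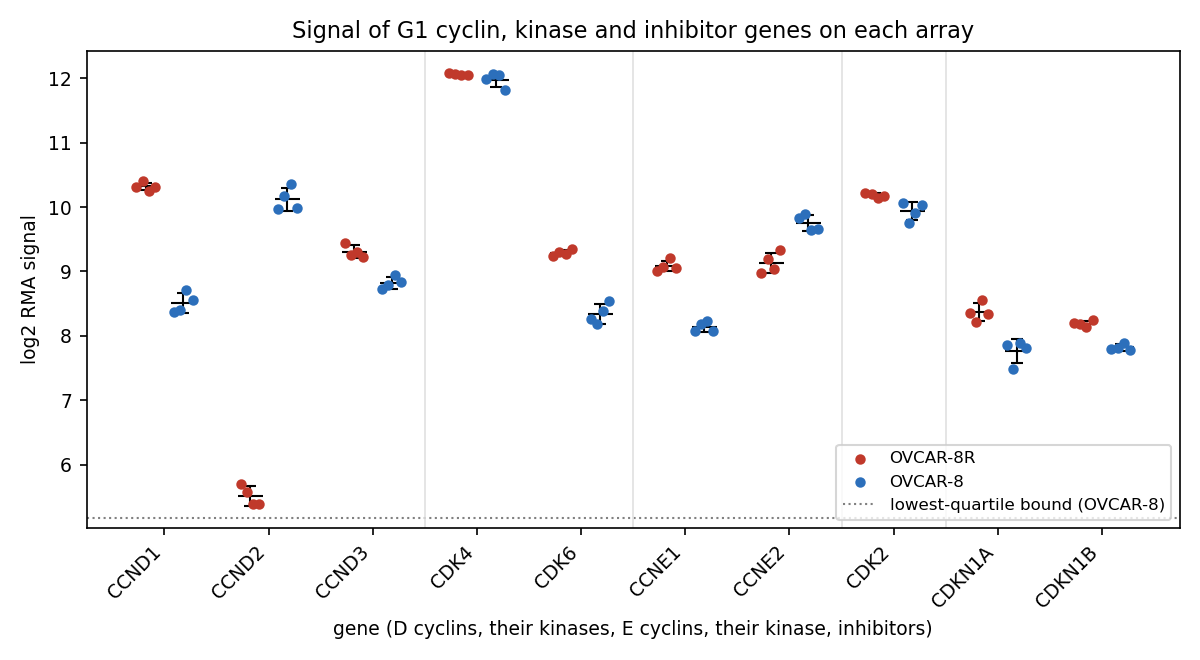
Log2 RMA signal (vertical axis) of each gene (horizontal axis) per array, OVCAR-8R in red and OVCAR-8 in blue (4 arrays each), with black bars for mean and SD, and the bound of the lowest quartile of signal in OVCAR-8 (5.16) dotted. CCND2 is near 10 in OVCAR-8 and between 5.38 and 5.70 in OVCAR-8R, CCND1 is higher in OVCAR-8R, and the CDK4 points of the lines overlap.

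The kinases of the D cyclins were not alike. CDK6 signals were 9.24, 9.31, 9.26 and 9.35 in OVCAR-8R against 8.26, 8.18, 8.38 and 8.54 in OVCAR-8, which did not overlap. The CDK6 difference was 0.95 (standard error 0.09), a 1.93-fold higher signal just short of the 2-fold threshold. It passed that threshold at 1.01 after cyclic loess normalization and at 1.02 without OVCAR-8 array 4, whose CDK6 signal was the highest of the line. CDK4 signals ran from 12.05 to 12.08 in OVCAR-8R and from 11.82 to 12.06 in OVCAR-8. These overlapped, and the CDK4 difference was 0.09 (standard error 0.07). It was 0.03 without OVCAR-8 array 4, whose CDK4 signal was the lowest, and 0.24 after cyclic loess. The difference of CDK6 was larger than that of CDK4 by 0.86 (standard error 0.13).

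The E cyclins differed in opposite directions too, by less. CCNE1 signals were 9.01, 9.07, 9.20 and 9.05 in OVCAR-8R and 8.07, 8.19, 8.22 and 8.08 in OVCAR-8. The lines were apart by at least 0.79, and the CCNE1 difference was 0.94 (standard error 0.07), a 1.92-fold higher signal that was not called. CCNE2 signals were 8.97, 9.19, 9.04 and 9.33 in OVCAR-8R and 9.84, 9.88, 9.64 and 9.66 in OVCAR-8. All OVCAR-8R arrays were lower, with a CCNE2 difference of -0.62 (standard error 0.10), a 1.54-fold lower signal that was not called. The differences of CCNE1 and CCNE2 were 1.56 apart (standard error 0.12). Within OVCAR-8R, arrays 1 and 3 were lower for CCNE2 than arrays 2 and 4. Those pairs of arrays deviated together over all probesets kept (r = 0.427 for arrays 1 and 3, and 0.484 for arrays 2 and 4). CDK2 signals ran from 10.14 to 10.22 in OVCAR-8R and from 9.75 to 10.06 in OVCAR-8, a difference of 0.25 (standard error 0.08) with a gap of 0.08 between the lines.

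Both inhibitors had higher means in OVCAR-8R, and neither was called. CDKN1A, a gene induced by stress signals, had signals of 8.35, 8.22, 8.56 and 8.34 in OVCAR-8R and 7.86, 7.48, 7.88 and 7.82 in OVCAR-8. The lines did not overlap, and OVCAR-8 array 2 was the lowest of all. The CDKN1A difference was 0.61 (standard error 0.11), a 1.53-fold higher signal, and without that array it was 0.52. CDKN1B signals ran from 8.13 to 8.24 in OVCAR-8R and from 7.78 to 7.89 in OVCAR-8. The CDKN1B difference was 0.37 (standard error 0.06), a 1.29-fold higher signal with little spread within either line.

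Ordered by difference, CCND1 (1.81) was followed by CDK6 (0.95) and CCNE1 (0.94), which were within their standard errors of each other, then CDKN1A (0.61), CCND3 (0.48), CDKN1B (0.37), CDK2 (0.25), CDK4 (0.09), CCNE2 (-0.62) and CCND2 (-4.61). From CDKN1A to CDK4 the steps between neighbours in this order were 0.92 to 1.46 times their combined standard error, so these neighbours did not differ beyond their spread. The median difference of the 10 genes was 0.43, against -0.01 over all genes. The arrays of the lines did not overlap for 9 of the 10, 7 higher and 2 lower, which was also so for 56.8% of all genes, 27.3% higher and 29.5% lower. By the adjusted p alone, with no limit on size, 7 of the 10 were higher and 2 lower, where 57.6% of all genes passed, 27.6% higher and 30% lower. The spread within a line differed between the genes. The SD over the 4 OVCAR-8R arrays was 0.01 for CDK4, lower than in all but 0.226% of genes, and at most 0.16 for CCND2 and CCNE2, larger than in 68.4% and 69.0% of genes. In OVCAR-8 the SD ran from 0.05 for CDKN1B to 0.19 for CDKN1A, the latter larger than in 81.5% of genes, and those of CCND2, CCND1 and CDK6 were larger than in 78.9%, 69.6% and 68.5%.

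**Figure D2:**
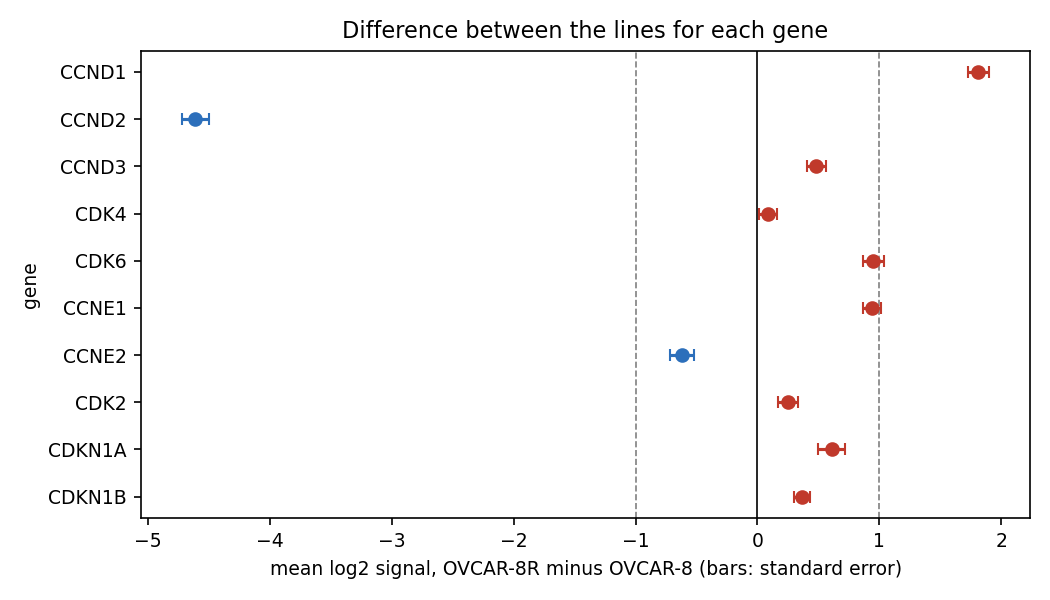
Difference in mean log2 signal, OVCAR-8R minus OVCAR-8 (horizontal axis), for each gene (vertical axis), with bars of 1 standard error and dashed lines at a 2-fold difference. CCND2 lies at -4.61 and CCND1 at 1.81, while the other 8 genes lie between -0.62 and 0.95.

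Promoter sequence was looked up for all 10 genes. RefSeq (GRCh38.p14) sequence upstream of a start site was found for 6 of them, CCND3, CCNE1, CDK4, CDK6, CDKN1A and CDKN1B. None was found for CCND1, CCND2, CCNE2 and CDK2, so the 2 called genes have no window here. Sequences were chosen for display from the genes near the 2-fold threshold, CCNE1 and CDK6, and from CDK4, whose signal differed least. The 250 bases before the start site (the first one listed) are shown 5′ to 3′ on the gene's strand, at chr19:29811741-29811990 (plus strand) for CCNE1, chr7:92836574-92836823 (minus strand) for CDK6 and chr12:57752311-57752560 (minus strand) for CDK4. Capitals mark the GC box GGGCGG and the E-box CACGTG on either strand.
CCNE1: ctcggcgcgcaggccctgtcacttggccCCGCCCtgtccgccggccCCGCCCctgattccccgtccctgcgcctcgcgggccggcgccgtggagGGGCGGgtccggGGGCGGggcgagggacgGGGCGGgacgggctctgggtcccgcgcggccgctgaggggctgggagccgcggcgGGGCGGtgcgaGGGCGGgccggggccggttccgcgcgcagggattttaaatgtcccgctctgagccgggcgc
CDK6: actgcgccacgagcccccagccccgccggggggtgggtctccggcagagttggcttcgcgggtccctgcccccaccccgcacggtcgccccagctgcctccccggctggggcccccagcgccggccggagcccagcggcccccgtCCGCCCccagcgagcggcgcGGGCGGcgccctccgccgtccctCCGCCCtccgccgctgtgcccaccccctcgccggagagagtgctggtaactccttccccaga
CDK4: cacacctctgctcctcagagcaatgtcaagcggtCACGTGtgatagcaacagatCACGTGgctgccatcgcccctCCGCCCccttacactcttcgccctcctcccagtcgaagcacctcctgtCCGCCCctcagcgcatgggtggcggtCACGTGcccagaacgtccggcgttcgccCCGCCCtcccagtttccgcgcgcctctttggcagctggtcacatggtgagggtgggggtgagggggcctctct
The CCNE1 window held 7 GC boxes, the CDK6 window 3 and the CDK4 window 3, and at least 1 was present in all 6 windows found, against 42.6% of 35116 promoter windows of the same length. The E-box was present in the CDK4 window alone among the 6, at 3 places, and in 6.34% of all windows. The GC content was 81.2% for CCNE1, 80.0% for CDK6 and 65.6% for CDK4, where the median of all windows was 58.0%. The E2F motifs TTTGGCGC, TTTCGCGC and TTTCCCGC, the cyclic AMP element TGACGTCA, the AP-1 site TGACTCA and the TATA box TATAAA had no match in the 6 windows. Among all windows these were held by 0.55%, 0.439%, 1.39%, 1.65%, 4.2% and 10.7%, in that order. The NF-Y motif CCAAT matched in that of CDKN1B and in 32% of all windows. No 2 of these motifs share a match in the windows shown. These matches are letters in a window and were not tested as sites.

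Around CCND2 on chromosome 12, no gene listed here had a difference near its -4.61. Of the 5 nearest measured genes on each side, PARP11, next to CCND2 on one side, fell by 1.91 (standard error 0.16, limma adjusted p = 5.06e-06), with an OVCAR-8R mean in the lowest quartile of signal. RAD51AP1, a recombination factor, fell by 1.46 (standard error 0.13, adjusted p = 6.71e-06) as the fifth gene on the other side. Of the rest, TIGAR, next to CCND2 on that side, which lowers glycolytic flux, had a difference of -0.55, FERRY3 one of -0.99, and FGF23 and FGF6 ones of -0.15 and -0.12. PARP11, FGF23 and FGF6 had OVCAR-8 means of 6.38, 6.30 and 6.22. TSPAN9, CRACR2A, TEAD4 and TIGAR had ones of 6.60, 6.91, 7.88 and 8.02. From any of these signals, a fall as large as that of CCND2 would end well below the lowest-quartile bound and could not be seen in full. TULP3, RAD51AP1 and FERRY3 were brighter in OVCAR-8, at 8.80, 9.69 and 10.16. Beyond PARP11, CRACR2A, TSPAN9, TEAD4 and TULP3 had differences of 0.69, 0.62, 0.73 and 0.68. Next to CCND1 on chromosome 11, MYEOV, a gene often coamplified with it in myeloma and carcinomas, rose by 1.79 (standard error 0.11, adjusted p = 7.95e-07). Its difference was close to the 1.81 of CCND1. The other 9 genes there were not called, with differences from -0.03 (ANO1) to 0.56 (MRGPRF). LTO1, next to CCND1 on the other side, had a difference of 0.10. Copy number was not tested.

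Around CDK6 on chromosome 7, 4 of 10 neighbours were called higher. SAMD9 and SAMD9L, which restrict viral infection and cell growth, rose by 4.45 and 2.49, TFPI2, a protease inhibitor, by 4.21 and GNG11, a G protein subunit, by 1.27. All 4 lay on one side of CDK6, where VPS50, between them, had a difference of -0.43, and the 5 on the other side were not called. SAMD9L was in the lowest quartile of signal in OVCAR-8. SAMD9, with an OVCAR-8 mean of 5.24, lay just above the bound of that quartile, 5.16. The sizes of both differences are therefore uncertain. Around CDK2 on chromosome 12, 4 of 10 were called higher, the receptor tyrosine kinase gene ERBB3 by 2.26, DGKA by 1.62, RAB5B by 1.13 and MMP19 by 1.12. Near CDKN1B, GPRC5A rose by 2.63, DUSP16 fell by 1.05 and MANSC1 fell by 1.04. ZNF536 fell by 2.11 near CCNE1, RAD54B fell by 1.42 near CCNE2, and B4GALNT1, near CDK4, rose just past the 2-fold threshold. No neighbour of CCND3 or CDKN1A was called. Over the 100 neighbours, 11 were called higher and 6 lower, 17.0% of them, against 16.7% of all genes.

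**Figure D3:**
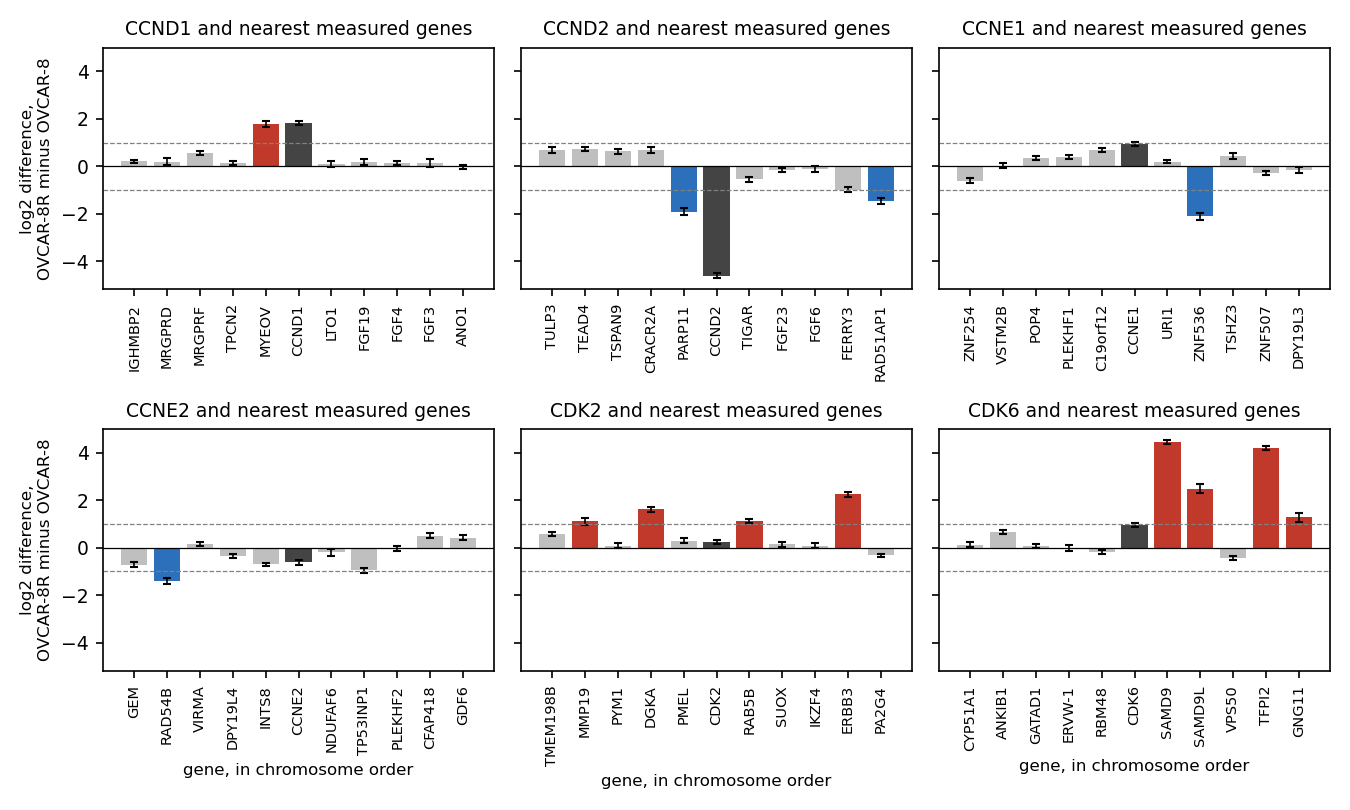
Difference in mean log2 signal, OVCAR-8R minus OVCAR-8 (vertical axis, bars of 1 standard error), of 6 of the genes (dark) and of the 5 nearest measured genes on each side in chromosome order (red called higher, blue called lower, grey not called, dashed lines at 2-fold). MYEOV next to CCND1 has a bar close to that of CCND1, unlike the other neighbours there. No neighbour of CCND2 comes near -4.61, and most of them were too dim in OVCAR-8 to show a fall of that size in full.

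By the root mean square difference of signals centred on each gene's own mean over the 8 arrays, the 5 genes most like CCND2 were ZCCHC12 (0.19), HOXD10 (0.22), GOLIM4 (0.23), HEY1 (0.24) and GALNT13 (0.26). HOXD10 is a homeobox factor and HEY1 a target of Notch signalling. Their differences ran from -4.85 (GOLIM4) to -4.46 (ZCCHC12), around the -4.61 of CCND2, since this measure mostly reflects the distance between the lines. In OVCAR-8R, ZCCHC12, GOLIM4 and GALNT13 had means of 5.00, 4.87 and 4.56, in the lowest quartile of signal. The sizes of their differences are therefore uncertain.

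Other genes of the G1 pathway were read from 10 lists with 137 measured genes, of which 9 rose, 20 fell and 108 did not pass the test, where 8.37% of all genes were called in each direction. Their median difference was -0.15, against -0.01 over all genes. The largest changes were in ETS1, SKP2 and CDC25A, and any effect of these on the 10 G1 genes was not tested. SKP2, the ubiquitin ligase subunit that targets p27 for degradation, had a difference of -2.71 (standard error 0.12, limma adjusted p = 5.70e-08). CDC25A, the phosphatase that activates CDK2, fell by 2.68 (standard error 0.08, adjusted p = 7.50e-09). ETS1, a transcription factor of growth factor signalling, rose by 4.78 (standard error 0.11, adjusted p = 1.25e-09).

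Among 17 measured genes for the ubiquitin ligases of G1 cyclins and inhibitors, 1 rose, 4 fell and 12 did not pass. SKP2 signals were 8.91, 9.25, 8.89 and 9.31 in OVCAR-8R and 11.81, 11.96, 11.78 and 11.66 in OVCAR-8. The lines were far apart, and OVCAR-8R arrays 1 and 3 were again lower than arrays 2 and 4. DTL, the substrate receptor that marks p21 and CDT1 for degradation in S phase, fell by 2.04 (standard error 0.10). Of the paralogous scaffolds that DTL can use, CUL4A rose by 1.99 (standard error 0.13) and CUL4B fell by 1.56 (standard error 0.08). FBXW7, the receptor for cyclin E, fell by 1.24 (standard error 0.11), from a mean signal of 7.14 in OVCAR-8. CKS1B, the cofactor that SKP2 needs for p27, had a difference of -0.90 and CUL1 one of -0.61. FBXO4 and FBXO31, reported receptors for cyclin D1, had differences of 0.08 and 0.19. AMBRA1 and FBXW8, also in this list, had ones of -0.31 and 0.46, with no overlap between the lines. The median difference of the list was -0.33.

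Among 23 measured transcriptional regulators of G1 genes, 3 rose, 1 fell and 19 did not pass, with a median difference of 0.10. ETS1 had signals of 10.97, 10.94, 11.05 and 10.77 in OVCAR-8R and 6.11, 6.08, 5.95 and 6.46 in OVCAR-8, with no overlap. Its relative ETS2, known to act on the CCND1 promoter, rose by 1.66 (standard error 0.08), and KLF6, known as an activator of CDKN1A, rose by 2.63 (standard error 0.08). LEF1, a nuclear effector of WNT signalling, fell by 2.58 (standard error 0.11, adjusted p = 5.37e-08), while CTNNB1 (β-catenin) and TCF7L2 had differences of -0.07 and 0.25. MYC had a difference of 0.61 and FOXM1 one of 0.41. FOXO1 and FOXO3 had ones of -0.31 and 0.10.

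Among 13 genes for RB pocket proteins and E2F and DP factors, 2 rose, 2 fell and 9 did not pass. RB1 fell by 1.15 (standard error 0.16, adjusted p = 0.00016). Its signals were 7.86, 8.50, 7.87 and 8.45 in OVCAR-8R and 9.29, 9.20, 9.36 and 9.42 in OVCAR-8, so that the lines did not overlap and OVCAR-8R arrays 1 and 3 were lower than arrays 2 and 4. RBL1 and RBL2, the related pocket proteins p107 and p130, had differences of -0.23 and -0.07. E2F1 had a difference of -0.05 and E2F3 one of 0.08. E2F7 and E2F8, which repress E2F targets, went in opposite directions, at 1.01 and -1.15, and TFDP1, the partner of E2F factors, rose by 1.02. E2F2, with -0.99, did not pass.

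Targets of E2F at the G1/S transition rose for 1 of 20 measured genes, TK1, and fell for 4, and 15 did not pass. The median difference of the list was -0.52. The replication genes CDC45, POLA1 and GINS2 had differences of -1.69, -1.35 and -1.02, the ribonucleotide reductase gene RRM1 fell by 1.19, and TK1 rose by 1.19. Of the helicase genes, MCM3 had a difference of -0.96 and MCM2 one of 0.29, and the clamp gene PCNA one of -0.53. In the MuvB core and its partners, which repress or activate cell cycle genes together with pocket proteins or MYB factors, LIN9, LIN52 and RBBP4 fell, with differences of -1.46, -1.15 and -1.08, MYBL1 rose by 1.06, and 4 of 8 did not pass. Of 6 later cyclin and CDK1 genes, CDK1, the mitotic kinase, fell by 1.08 and the germline cyclin gene CCNA1 fell just past the 2-fold threshold, while CCNA2 and CCNB1 had differences of -0.81 and 0.01. The median of these 6 was -0.65.

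None of the 4 other CDK inhibitor genes measured passed the call rule by limma, and 2 of them, CDKN2A (p16) and CDKN2B (p15), passed the adjusted p alone, with differences of 0.19 and 0.35. CDKN1C (p57) had a difference of 0.31 and CDKN2D (p19) one of 0.15. Of 8 genes for the CDK-activating kinase, the CDC25 phosphatases and the inhibitory kinases, none rose and 2 fell, CDC25A and CDC25C, the latter with a difference of -1.05. CDC25A signals were 7.17, 7.44, 7.29 and 7.50 in OVCAR-8R against 10.08, 10.01, 10.03 and 10.01 in OVCAR-8, with no overlap. CDC25B had a difference of 0.74 and WEE1, which inhibits CDK1 and CDK2, one of -0.70 with a wide standard error of 0.29. Among 28 other cyclins and CDKs, CCNJL rose by 1.36, CCNJ fell by 1.27, CCNT1, the cyclin of the elongation kinase CDK9, fell by 1.21, and 25 did not pass. None of the 10 proliferation markers passed the call rule by limma, although with no limit on size 3 rose and 4 fell (adjusted p under 0.05). TPX2, CDC20 and UBE2C rose, by 0.40, 0.34 and 0.20. TOP2A, AURKB, PLK1 and BIRC5 fell, with differences of -0.54, -0.31, -0.22 and -0.22. MKI67 (Ki-67), at -0.22, did not pass by the adjusted p either. In bulk RNA, a different share of cells in each phase and a different amount of RNA per cell cannot be told apart.

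**Figure D4:**
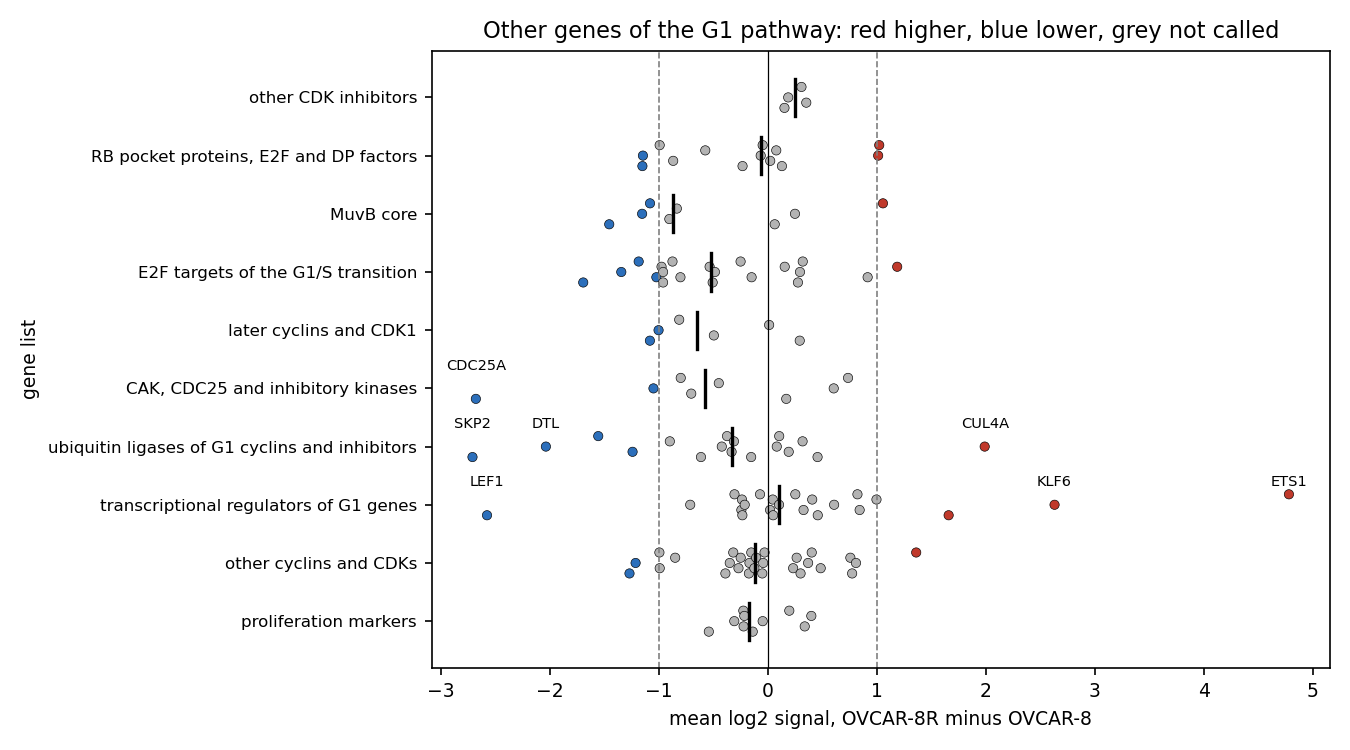
Difference in mean log2 signal, OVCAR-8R minus OVCAR-8 (horizontal axis), of the measured genes in each of 10 lists (vertical axis), in red where called higher, blue where called lower and grey where not called, with black bars at the list medians and dashed lines at a 2-fold difference. ETS1 lies at 4.78, and SKP2, CDC25A and LEF1 lie at -2.71, -2.68 and -2.58, while the proliferation markers lie between -0.54 and 0.40.

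The treat test, which asks for more than 2-fold, called 5 pathway genes higher (ETS1, KLF6, CUL4A, ETS2 and CCNJL) and 8 lower (SKP2, CDC25A, LEF1, DTL, CDC45, CUL4B, LIN9 and POLA1). The calls of RB1, E2F7, E2F8, TFDP1, RBBP4, LIN52, MYBL1, RRM1, GINS2, TK1, CCNA1, CDK1, CDC25C, FBXW7, CCNJ and CCNT1 ended with it, as did those of RAB5B, MMP19, GNG11, B4GALNT1, DUSP16 and MANSC1 among the neighbours. Leaving out a single array also ended the calls of CCNA1 and TFDP1 (each of 4 arrays), E2F7 (3 arrays), MYBL1 and MANSC1 (2 arrays each) and CDC25C, CDK1, DUSP16, GINS2 and MMP19 (1 array each). Cyclic loess ended the calls of CDK1, GINS2 and RBBP4, and array weights those of CCNA1 and GINS2. FERRY3 was called lower after median scaling and without any 1 of 3 arrays. CCND1 and CCND2 were called under treat and without any of the 8 arrays.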

How the data were processed

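RNA of spheroids was measured on Affymetrix Human Gene ST arrays, and the authors computed the signals by RMA in Affymetrix Expression Console, per the labels and methods. The deposited table holds 1 RMA intensity per probeset and array on a linear scale, for 33297 probesets, and log2 was taken here. RMA equalizes the arrays, so an overall difference in signal is removed. Of the probesets, 19460 are annotated to 1 gene, 1754 to several and 12083 are unnamed here. Symbols were looked up by identifier in the RefSeq table of GRCh38.p14. As the methods describe, a probeset was dropped if OVCAR-8R and OVCAR-8 each placed it among their dimmest 25%, and 25628 were kept. Where a gene had several probesets (647 genes), the brightest one stood for it. The lines were compared by limma 3.58.1 (lmFit, then eBayes) in R 4.3.3 without a replicate block, and p-values were adjusted over all kept probesets by the method of Benjamini and Hochberg. Arrays give no depth, and their number limits the precision. The p-values measure the spread between arrays, which may be partly technical. On simulated data for this comparison (25262 probesets), 99 of 100 changes of log2 size 1.5 and 99 of 100 of size 2 were recovered. The simulated noise was independent between arrays, and only brighter probesets were changed. Sizes nearer the 2-fold threshold were not simulated. The members and lists were chosen with earlier results of these data known. Named are the 10 genes, up to 4 called genes of each list and direction with the largest differences, 13 regulators chosen by role, the neighbours of CCND2, called neighbours of the other genes, and the 5 genes most like CCND2. Further uncalled genes were picked as examples after their values were seen. Neighbours are the 5 nearest measured genes on each side in the RefSeq order. Protein sequences were not used here. The alternatives were other filters and thresholds, the methods' t-test after Benjamini-Hochberg adjustment, array weights, a variance trend, median scaling, cyclic loess, the mean of a gene's probesets, a block on replicate number, and omission of single arrays.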

Additional observations from a re-analysis of the deposited data

Results flagged for a closer look

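In all, 6 groups of arrays held a value far from the other 3, among 154 groups looked at for the named genes, where chance flags about 1 in 20 groups. Among the G1 genes, CDKN1A was at 7.48 on OVCAR-8 array 2 against 7.82 to 7.88 on the others, a gap of 0.833 of the range. HOXD10 was at 10.58 on OVCAR-8 array 2 against 10.87 to 10.90 (0.904 of the range). CDKN2B was at 7.09 on OVCAR-8 array 3 with the other arrays starting at 6.99 (0.844). CCNJ was at 8.48 on OVCAR-8R array 3 against 8.81 to 8.86 (0.861). LIN52 was at 8.69 on OVCAR-8R array 1 against 8.79 to 8.80 (0.851 of the range), and DUSP16 was at 7.85 on OVCAR-8R array 2 against 7.51 to 7.56 (0.837).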

How the results depend on the processing

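With no limit on size at an adjusted p under 0.05, 4396 genes were higher and 4776 lower, among them 7 and 2 of the G1 genes, 39 and 57 pathway genes, and 34 and 29 neighbours. The methods' t-test, adjusted and at their threshold of size, called 1334 genes higher and 1333 lower. With treat, 832 genes were higher and 643 lower, among them 5 and 8 pathway genes, and 7 and 4 neighbours. The number of G1 genes called higher was 2 after cyclic loess, where CDK6 passed, and ran from 1 to 2 when each array was left out in turn. After cyclic loess the differences of CDK2 and CDK4 moved to 0.36 and 0.24. Without a single array, the CCND2 difference minus that of CCND1 ran from -6.49 to -6.37, and minus that of CCND3 from -5.14 to -5.05. The replicate numbers are not known to pair the samples. Arrays with the same number had deviations correlated at 0.165, -0.323, -0.052 and 0.443. For number 4 this lay above the range with other numbers (-0.324 to 0.015), for number 2 below it (-0.139 to 0.383), and for numbers 1 and 3 within it. With a replicate block 1334 genes were called higher and 1334 lower, and no call of a G1 gene changed. No called result changed sign, while the difference of CCNB1, 0.01 with all arrays, was -0.02 without OVCAR-8R array 3. The signal of CCND2 in OVCAR-8R is near background, which limits what can be said of its size.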
